A study of Mus musculus with 14 samples.

Results

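Chromatin accessibility was compared in regulatory T (Treg) cells of mice treated for 7 days with the degrader ligand 5-ph-IAA, between mice in which the ligand could bring about Foxp3 degradation and control mice in which it could not. The comparison uses the 6 day 7 libraries of the 14 in the series and the 237811 of 240778 deposited peak windows whose counts averaged 10 or more in those 6. The remaining 2967 windows fell under that minimum and were not tested. Each window is 201 bp long and 133035 of them overlap another window, so the counts were also summed over the 158380 regions that overlapping windows form. They were summed as well over all windows whose nearest protein-coding start site (GRCm38), within 1 Mb, was that of the same gene. Another sum took only the windows centred within 1 kb of that start site, called promoters here.

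Both groups carried the Foxp3AID allele, in which Foxp3 is fused to an auxin-inducible degron, and both received 5-ph-IAA. The 3 R26TIR1(F74G) mice also carried, at the Rosa26 (R26) locus, the plant F-box protein TIR1 with the F74G change that lets it bind 5-ph-IAA, whereas the 3 R26WT mice had an unmodified R26 locus. TIR1 was transcribed from a CAG promoter behind a loxP-flanked stop, so it appeared only in cells in which the Cre recombinase of the Foxp3AID allele had acted, and it was followed by mCherry. Sorted CD4+TCRβ+ cells of pooled spleen and lymph nodes were ZsGreen+ in controls and ZsGreen+mCherry+ in R26TIR1(F74G) mice. The study describes its day 7 accessibility analysis in resting and activated Treg cells. The labels give neither an activation state nor the age of the mice, so the activation state of each library is not known here. The study describes this degradation experiment in heterozygous Foxp3AID/WT females, in which Treg cells using the other, unaltered Foxp3 allele remain in the host, whereas the labels name neither sex nor zygosity. The labels number the libraries within each group and do not say that they came from separate litters or sorts. The mouse name begins with E for the third R26TIR1(F74G) mouse and with AC for the other day 7 mice. What these letters stand for is not given. The libraries were made by ATAC-seq, in which the Tn5 transposase cuts and tags open DNA.

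Foxp3 is the forkhead transcription factor that defines Treg cells and is needed to establish their suppressive programme. It works largely at enhancers that are already open in T cell precursors, where it acts with other factors. Treg cells depend on interleukin 2 (IL-2), whose high-affinity receptor contains Il2ra (CD25) and signals through STAT5.

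Total counts in the windows ranged from 15937580 to 20184487 in 5 of the libraries. The third R26WT mouse had 6348754, and its share of counts within 1 kb of a start site was also the lowest (42.45%, against 44.91% to 46.04% in the other 5). The main results that this mouse moves are given with and without it. Over the 72691 windows that averaged 50 counts or more, the root mean square difference between 2 mice on the log2 scale (pseudocount 0.5) had a median of 0.26 for the 6 pairs of the same genotype and 0.272 for the 9 pairs of different genotype. Without the third R26WT mouse the 4 pairs of the same genotype spanned 0.238 to 0.269 (median 0.244) and the 6 of different genotype 0.251 to 0.274 (median 0.262). With all 6 mice the distances overlapped whether or not the pair crossed the genotypes. Without the third R26WT mouse they overlapped only through the first and second R26TIR1(F74G) mice (0.269). The other pairs of the same genotype then lay at 0.238, 0.238 and 0.25.

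The Treg and CD4+ T cell markers had accessible windows in every mouse. Windows assigned to Foxp3 held 13.4 to 15.7 CPM (counts relative to the library size after TMM normalization) in R26TIR1(F74G) mice and 15.2 to 18.1 in R26WT mice. At the gene level CPM relates to all counts assigned to genes. Those assigned to Ctla4, a co-inhibitory receptor of Treg cells, held 217 to 258 CPM over all 6 mice. The B cell marker Ms4a1 had too few counts to be tested, as did Csf1r, Fcgr3 and S100a8 of 10 myeloid marker genes. The other 7 myeloid markers and 8 B cell markers were tested, and some markers of other lineages held more CPM than Foxp3. The B cell gene Ebf1 held 85.4 to 102 CPM, and the natural killer cell genes Eomes and Klrb1c held 129 to 146 and 308 to 371. Lower values were those of Lyz2 (2.60 to 6.38) and Nkg7 (2.55 to 5.04). Accessibility does not measure the Foxp3 protein, so degradation itself was not checked here.

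At the level of regions, genes and promoters, none of the features tested differed between the genotypes by edgeR's quasi-likelihood test at a Benjamini-Hochberg adjusted p under 0.05. The regions were 0 of 157269 (0%), with 5.82% at an unadjusted p under 0.05 and a smallest adjusted p of 0.622. Of the 16204 genes tested, 0 passed (0%), 1149 had an unadjusted p under 0.05 (7.09%) and the smallest adjusted p was 0.681. Of 11441 promoters, 0 passed (0%), 921 had an unadjusted p under 0.05 (8.05%) and the smallest adjusted p was 0.256. DESeq2, the tool used by the study, called 14 regions, 12 genes and 5 promoters at the same threshold, and 5498, 1016 and 713 at an unadjusted p under 0.05. Single windows gave 11 calls (0.00463%) with edgeR, against 5.95% at an unadjusted p under 0.05. DESeq2 called 0 windows (6367 before adjustment), and with edgeR the 11 became 0 without the third R26TIR1(F74G) mouse.

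The precision that 6 libraries gave differed by level. The 95% confidence interval of the log2 fold change lay within 2-fold in either direction for 94% of genes, 95.6% of promoters, 76.7% of regions and 71.3% of windows. It lay within 1.5-fold for 80.4% of genes and 82.9% of promoters, but for only 29.7% of regions and 26.8% of windows. The central 95% of gene-level log2 fold changes ran from -0.49 to 0.29, and that of promoters from -0.44 to 0.28.

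The 11 windows that passed lie in 8 regions, and named by their nearest start site these are Podxl, Mocos, Marveld2, Ptk2b, Unc5cl, Fam189b and, for a pair of regions, Hspa1b. The same windows had a residual spread estimated with 42.2 degrees of freedom at the window level against 17.1 at the region level, and none of the 8 regions passed. In 9 of the 11 windows the groups did not overlap, against 11.8% of all windows tested. The 11 were picked by p-values of the same counts, so this adds nothing to them. Only 5 of the 11 had the same sign between the genotypes on day 3. The test of the difference between the days uses the same day 7 values by which these windows were picked, so its small p-values for them (unadjusted p under 0.05 for all 11, edgeR) add nothing. No window passed that test after adjustment (smallest adjusted p 0.335, 15221 of 240778 at an unadjusted p under 0.05).

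The region nearest to Podxl, the gene of the sialomucin podocalyxin, had the largest of these differences. It lies 240546 bp upstream of that start site at chr6:31804383-31804584 (mm10). Its CPM was 0.854, 2.81 and 1.41 in the R26TIR1(F74G) mice and 3.01, 8.03 and 7.55 in the R26WT mice (log2 fold change -1.86, standard error (SE) 0.39, adjusted p = 0.735 as a region). The groups did not overlap, but the second R26TIR1(F74G) mouse and the first R26WT mouse were close to each other. Exactly 3 other regions within 50 kb could be tested, at 0.41, 1.12 and 4.87 kb from it. Their log2 fold changes were -1.17, -1.95 and -1.63, each with an unadjusted p under 0.05 (0.0105, 0.00433 and 0.000283, edgeR). In the nearest of them the CPM was 0.641, 2.16 and 1.11 against 1.60, 3.35 and 4.08, so that these 2 mice crossed. On day 3 these 3 regions had log2 fold changes of -0.41, -0.75 and 0.16.

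Mocos encodes molybdenum cofactor sulfurase. Its region, of 10 windows inside the gene and 19330 bp from the start site (chr18:24671776-24673110), held 41.4, 60.5 and 45.7 CPM in R26TIR1(F74G) mice and 85.2, 74.8 and 105 in R26WT mice. Every R26TIR1(F74G) mouse was below every R26WT mouse (log2 fold change -0.84, SE 0.14, adjusted p = 0.622). Of the 9 other regions within 50 kb, 3 were lower at an unadjusted p under 0.05, and these lay within 1.44 kb of it. The 4 regions about the Mocos start site itself had values of 0.12 to 0.42. All windows assigned to the gene gave -0.50 (SE 0.10, adjusted p = 0.681), but windows within 10 kb of the start site alone gave 0.29, so the sign at Mocos depended on the part of the gene that was counted. On day 3 the region's log2 fold change was 0.02.

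Hspa1b and its neighbour Hspa1a encode the inducible Hsp70 chaperones. A region just inside the Hspa1b gene (chr17:34958769-34959098) held 76.5, 45.4 and 76.6 CPM in R26TIR1(F74G) mice and 29.2, 46.5 and 25.2 in R26WT mice. The second mouse of each group had nearly the same value, so the groups overlapped (log2 fold change 0.95, SE 0.20, adjusted p = 0.735). A second region further into the gene (chr17:34958480-34958681) held 16.7, 6.94 and 11.4 CPM against 4.10, 7.16 and 2.57, with the same overlap (log2 fold change 1.25, SE 0.30, adjusted p = 0.797). The region that covers the start site itself (chr17:34959151-34959352) held 36.9, 24.8 and 32.7 against 17.7, 25.1 and 20.2, a smaller log2 fold change of 0.58 (SE 0.15), and the next one upstream had 0.18 (SE 0.18). Within 50 kb, 14 of the 35 tested regions were higher at an unadjusted p under 0.05 and none was lower. Of the 14, 7 were assigned to Hspa1b, 6 to Hspa1a and 1 to Hspa1l, with log2 fold changes of 0.36 to 1.28. The regions of the flanking genes Slc44a4, Neu1, Lsm2 and D17H6S56E-5 were not among them.

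**Figure D1:**
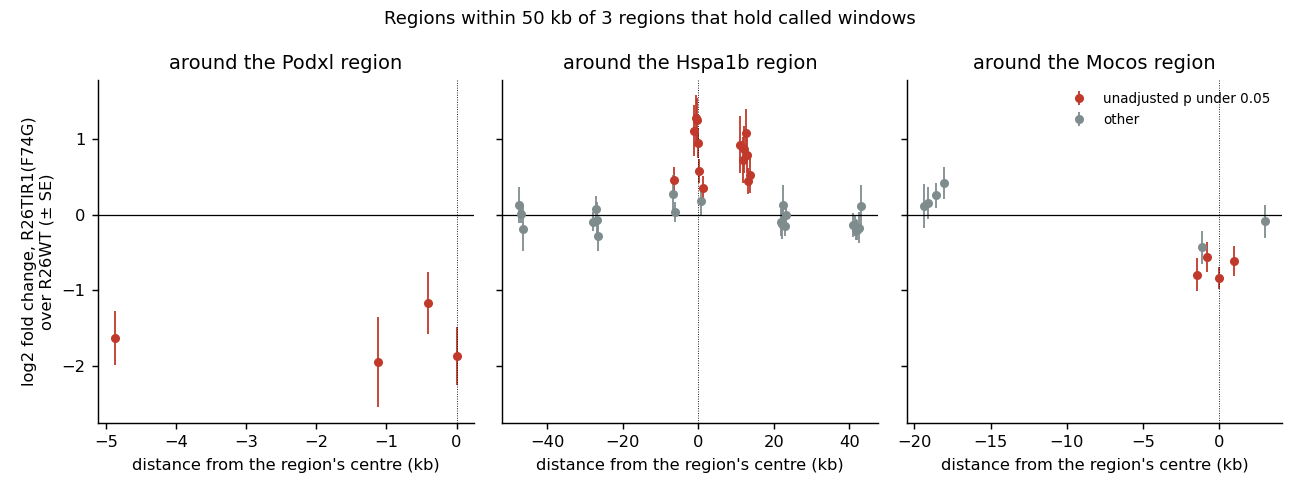
Log2 fold change (R26TIR1(F74G) over R26WT, bars ± SE) of each tested region within 50 kb of the Podxl, Hspa1b and Mocos regions, by distance from the centre of that region in kb, with regions at an unadjusted p under 0.05 in red. All 4 Podxl regions lie below 0, the 14 red regions around Hspa1b lie above 0 in 3 groups, and the Mocos regions below 0 lie close to the centre.

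The remaining 4 regions that hold called windows were single or paired windows. Near Unc5cl, 193463 bp from the start site and outside any protein-coding gene (chr17:48647490-48647754), the CPM was 14.9, 13.8 and 14.3 in R26TIR1(F74G) mice and 5.58, 9.07 and 3.63 in R26WT mice (log2 fold change 1.15, SE 0.21, adjusted p = 0.622). The R26TIR1(F74G) mice were close together and all above the controls. Inside Ptk2b, the gene of the tyrosine kinase Pyk2, a window at chr14:66234464-66234665 held 9.83, 7.42 and 13.6 CPM against 5.07, 5.83 and 3.78 (log2 fold change 1.03, SE 0.22, adjusted p = 0.735). Inside Fam189b, at chr3:89188166-89188367, the CPM was 12.6, 10.6 and 11.5 against 6.73, 6.18 and 6.19 (log2 fold change 0.86, SE 0.16, adjusted p = 0.622). The R26WT mice were almost equal here. Near Marveld2, the gene of the tight junction protein tricellulin, the order was the reverse, at 4.65, 2.51 and 3.97 CPM against 7.25, 8.32 and 8.46 (chr13:100589034-100589235, log2 fold change -1.09, SE 0.22, adjusted p = 0.735).

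Ranked by p-value at the region level, the 3 highest and 3 lowest regions were mostly other ones, and none passed (adjusted p = 0.622 for each, edgeR). The first lies 16747 bp from the start of Irf1, a transcription factor of the interferon response (chr11:53786417-53786994), with 19.2, 18.0 and 15.8 CPM in R26TIR1(F74G) mice and 10.7, 9.47 and 10.4 in R26WT mice. Its log2 fold change of 0.80 (SE 0.14) on day 7 compares with -0.45 on day 3. A region inside Fam193a and nearest to the start of Tnip2 (chr5:34466079-34466551), which encodes an inhibitor of NF-κB signalling, had 9.77, 11.1 and 12.2 CPM against 5.26, 5.37 and 6.50 (log2 fold change 0.98, SE 0.17). A region 5042 bp upstream of the vomeronasal receptor gene Vmn1r1 (chr1:182162831-182163241) held 7.69, 7.30 and 8.90 against 3.46, 3.70 and 4.23 (log2 fold change 1.09, SE 0.19). In these 3 regions the groups were separated by more than the range within either group.

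Among the lower regions, one inside Rdh13 and nearest to Eps8l1 (chr7:4454827-4455249) held 7.26, 5.45 and 3.97 CPM in R26TIR1(F74G) mice and 10.5, 13.7 and 16.5 in R26WT mice (log2 fold change -1.26, SE 0.21). On day 3 its log2 fold change was 0.63. A region near Plk5, of the polo-like kinase family (chr10:80368503-80368863), held 5.23, 6.23 and 6.38 against 12.8, 10.0 and 21.9 (log2 fold change -1.26, SE 0.23), with the third R26WT mouse highest by far. The Mocos region was the third of the lower ones. DESeq2 called 8 of the 13 regions described here, namely those near Irf1, Tnip2, Vmn1r1, Eps8l1, Mocos, Plk5, Unc5cl and Fam189b. In 11 of the 13 the groups did not overlap, as in 12.3% of all regions tested, but the 13 were picked by the same p-values. All 13 kept their sign when any 1 of the 6 mice was left out.

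**Figure D2:**
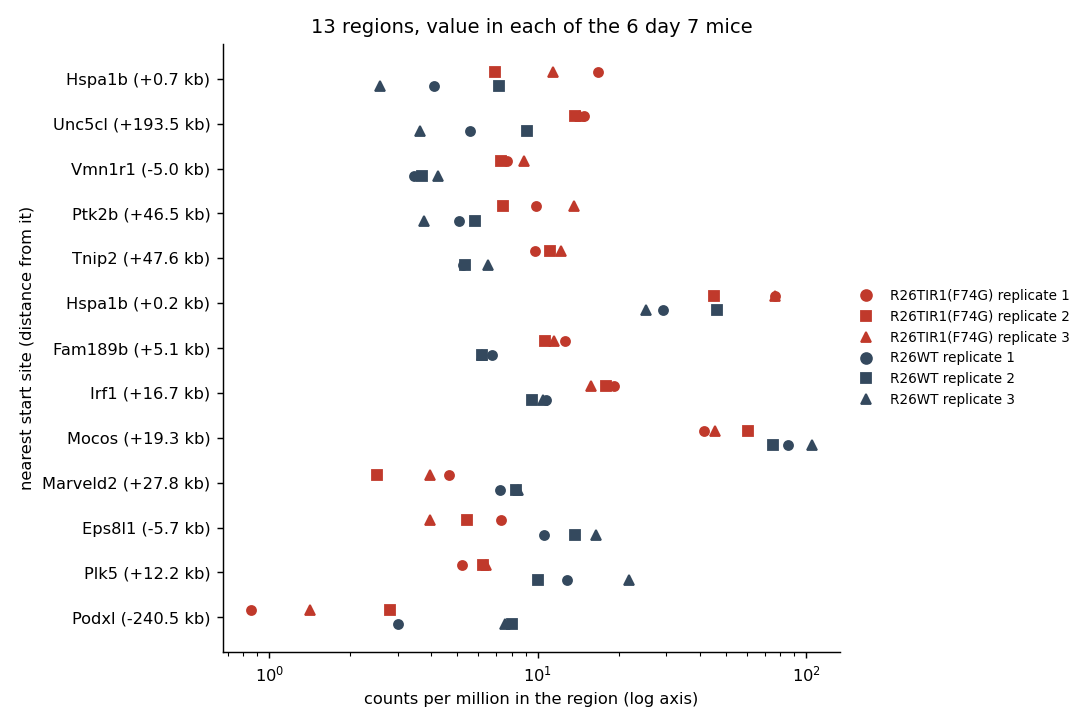
CPM (log axis) in each of the 6 mice for the 13 regions described above, labelled by the nearest start site and the distance from it in kb. R26TIR1(F74G) mice are red and R26WT mice dark blue, and the symbol gives the replicate number. The groups overlap in the 2 Hspa1b regions only.

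By whole genes, the 3 with the smallest p among the higher ones were Cyb5b, Igsf6 and Zmat4, and among the lower ones Nkx2-5, Mocos and Capn11 (adjusted p = 0.681 for each, edgeR). DESeq2 called 2 of these 6, Cyb5b (adjusted p = 0.00209) and Mocos (0.00459). Windows of Cyb5b, a cytochrome b5 of the outer mitochondrial membrane, held 88.5, 83.2 and 86.0 CPM in R26TIR1(F74G) mice and 65.9, 65.5 and 59.4 in R26WT mice (log2 fold change 0.43, SE 0.07). The corresponding value on day 3 was -0.10, and the difference between the days had an adjusted p of 0.237, the smallest of any gene. Igsf6, of the immunoglobulin superfamily, held 39.6, 48.3 and 42.1 CPM against 31.3, 27.0 and 22.3 (log2 fold change 0.66, SE 0.12). For Zmat4 the values were 31.0, 28.6 and 24.0 against 18.3, 18.3 and 19.1 (log2 fold change 0.59, SE 0.12), and its day 3 log2 fold change was 0.52. Nkx2-5, a homeobox gene of heart development, held 17.3, 15.6 and 17.2 CPM against 23.1, 25.7 and 31.9 (log2 fold change -0.67, SE 0.13). Capn11, of the calpain protease family, held 27.6, 26.3 and 25.2 against 32.7, 36.2 and 40.8 (log2 fold change -0.46, SE 0.10). In all of these genes the groups did not overlap, which was so for 14.3% of all genes tested. The genes were picked by p-values of the same counts, so this adds nothing to them.

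By promoters, Tdrp, Trmt1l and Ctnnal1 had the smallest p among the higher ones (adjusted p = 0.256, 0.257 and 0.257, edgeR). The Tdrp promoter held 79.6, 69.9 and 95.2 CPM in R26TIR1(F74G) mice and 49.3, 53.5 and 51.2 in R26WT mice (log2 fold change 0.67, SE 0.11), where CPM relates to all counts in promoters. Trmt1l, related to tRNA methyltransferases, held 117, 112 and 112 against 86.8, 86.7 and 70.6 (log2 fold change 0.46, SE 0.08). Ctnnal1, the gene of α-catulin, held 108, 118 and 112 against 91.2, 72.4 and 77.1 (log2 fold change 0.48, SE 0.09). All 3 were called by DESeq2, which gave them adjusted p-values of 0.00271, 0.0150 and 0.0150. On day 3 their log2 fold changes were -0.01, 0.05 and 0.06. The lower promoters with the smallest p were Ifrd2 (-0.29), Tfap2e (-0.86) and Nelfe (-0.41), each with an adjusted p of 0.426. Tfap2e, of the AP-2 transcription factor family, held 16.3, 18.3 and 16.7 CPM against 26.2, 26.7 and 42.8, and 0.42 was its log2 fold change on day 3. Groups did not overlap in these 6 promoters, nor in 15.5% of all promoters tested. Since the 6 were picked by p-values of the same counts, this adds nothing to them.

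Of the 15 heat shock genes, 6 were higher in R26TIR1(F74G) mice at an unadjusted p under 0.05 at both levels. None passed after adjustment by edgeR's test, while DESeq2 called 1 of them, Hsp90ab1, at both levels. Most heat shock genes encode chaperones that fold proteins and bind unfolded ones. Many of their promoters carry heat shock elements, inverted repeats of the letters GAA that the factor Hsf1 binds. The list also holds the gene of Hsf1, which is not a chaperone. All genes of the list were tested. At the promoter level 6 of 15 were higher at an unadjusted p under 0.05 and 0 lower (edgeR), against 4.13% of all promoters higher and 3.92% lower. The same 6 genes, Hspa1a, Hspa1b, Hsph1, Hsp90ab1, Hspd1 and Hspe1, were the ones higher at the gene level, against 3.62% of all genes higher and 3.47% lower. By edgeR's test none of the 15 passed over all promoters or genes (smallest adjusted p 0.353 and 0.681), whereas DESeq2's adjusted p for Hsp90ab1 was 0.00271 at the promoter and 0.0481 at the gene. This list was chosen after called windows of Hspa1b had been seen, so its count is not independent of them.

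Promoter sequences of 4 of these loci are shown for the heat shock elements they hold. At Hspa1b the called windows lie downstream of this stretch, 241 to 658 bp inside the gene. They are RefSeq sequences of GRCm38.p6, 30 bases each, 5′ to 3′ on the strand of the gene, with matches to GAANNTTC or TTCNNGAA in capitals.
Hspa1b and Hspa1a: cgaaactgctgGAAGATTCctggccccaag
Hspe1: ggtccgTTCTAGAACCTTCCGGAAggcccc
Hspd1: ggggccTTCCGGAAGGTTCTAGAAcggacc
Hsph1: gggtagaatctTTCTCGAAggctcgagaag
Hspa1b and Hspa1a shared 247 of the 250 bases before the start site (98.8%), so that reads in these copies may be split between them and their separate values are uncertain. The match lies 104 to 97 bases before the start in both. The Hspd1 line precedes the second of the 2 Hspd1 starts in the table, which points away from the Hspe1 start across a shared stretch, so that the capitals are the same letters read on opposite strands. The start to which the Hspd1 accessibility values refer is the other one, whose 250 bases hold no match, and the windows of both genes are neighbours. In Hsph1 the match lies 33 to 26 bases before the start.

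Either form of the element was found in 12.8% of the 32851 promoters of the RefSeq table and in 14.5% of its 27025 genes, on both strands and over the 250 bases before the start. The heat shock list had it in 7 of the 11 genes with a promoter in the table (63.6%), namely Dnaja1, Hspa1a, Hspa1b, Hspb1, Hspd1, Hspe1 and Hsph1. A promoter with the letters was thus not always one of the 6 higher ones. Dnaja1 had a promoter log2 fold change of 0.13 and Hspb1 one of -0.10.

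The Hspa1b promoter held 360, 215 and 314 CPM in R26TIR1(F74G) mice and 143, 218 and 157 in R26WT mice (log2 fold change 0.77, SE 0.16, adjusted p = 0.353). For Hspa1a the values were 182, 91.7 and 154 against 77.8, 108 and 79.7 (log2 fold change 0.67, SE 0.19). In both genes the second mouse of each group fell inside the range of the other group. Hsp90ab1, which encodes the constitutive cytosolic Hsp90β, did not overlap, with 531, 470 and 503 CPM against 380, 439 and 375 (log2 fold change 0.33, SE 0.07, adjusted p = 0.353 by edgeR and 0.00271 by DESeq2). The mitochondrial chaperonin pair did not overlap either. Hspd1 held 44.8, 32.6 and 42.3 against 26.6, 25.9 and 26.7 (log2 fold change 0.60, SE 0.15), and Hspe1 held 227, 206 and 220 against 173, 188 and 188 (log2 fold change 0.26, SE 0.07). Hsph1, of the Hsp110 family, held 328, 311 and 320 against 278, 302 and 272 (log2 fold change 0.17, SE 0.06).

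The other members were close to 0 or variable. Hspa8, the constitutive Hsc70, had 712, 638 and 640 CPM against 655, 652 and 586 (0.07, SE 0.06), and Hspa5, the chaperone of the endoplasmic reticulum, had a value of -0.06 (SE 0.06). Hsf1 itself stood at -0.07 (SE 0.07) and Hsp90aa1 at 0.05 (SE 0.07). The median of the list was 0.15 at promoters and 0.16 at genes, against -0.002 and -0.003 over all features. Leaving out 1 mouse at a time, 5 to 8 promoters and 6 to 9 genes of the list were higher at an unadjusted p under 0.05. The list's median was largest without the second R26TIR1(F74G) mouse at promoters (0.23) and without the second R26WT mouse at genes (0.26). Without the third R26WT mouse the counts stayed at 6 and 6.

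On day 3, where other mice were used, the same list had medians of -0.04 at both levels, with 0 higher and 1 lower at an unadjusted p under 0.05. On that day 17.4% of all genes and 12.4% of all promoters had such a p in either direction. The difference between the days had an unadjusted p under 0.05 for 4 of the 15 promoters and 6 of the 15 genes (edgeR), against 8.03% of all promoters and 10.7% of all genes, and no adjusted p was below 0.351. That test uses the same day 7 values after which the list was chosen, so these counts add nothing to those of day 7. Among these, Hsp90ab1 had a promoter log2 fold change of 0.33 on day 7 and -0.09 on day 3. Early response genes, such as Fos and Jun family members, were tested at all 20 loci, with medians of 0.02 at genes and 0.03 at promoters. On day 7, 1 gene, Nr4a1 (-0.12, SE 0.06), and 0 promoters had an unadjusted p under 0.05, against 7.09% of all genes and 8.05% of all promoters.

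**Figure D3:**
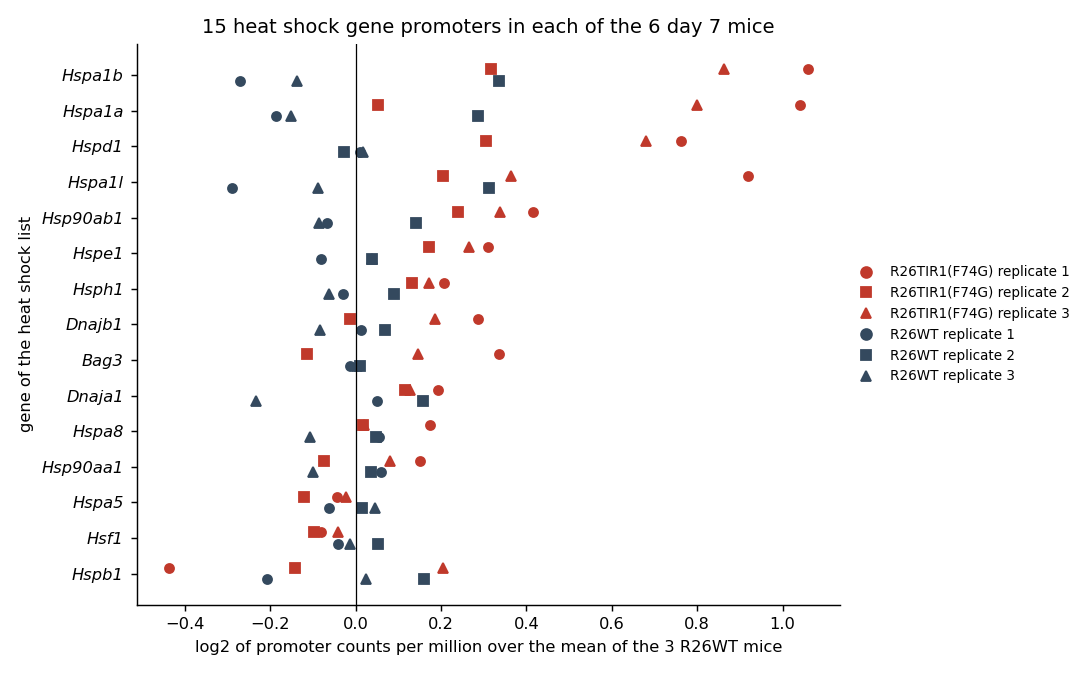
Promoter accessibility of the 15 heat shock genes in each mouse, as log2 of its CPM over the mean of the 3 R26WT mice, with R26TIR1(F74G) mice in red and R26WT mice in dark blue. The red points of Hspd1, Hsp90ab1, Hspe1 and Hsph1 lie to the right of all R26WT points, while for Hspa1b and Hspa1a the second mouse of each group (squares) lies inside the other group's range.

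The study names genes whose expression was lower or higher after Foxp3 degradation, and 11 of those in its text were taken here. These are 7 lower and 4 higher ones, not its full set of changed genes. They were selected with results of the same project and their direction here is not independent evidence. For Il2rb, Tnfrsf4, Tnfrsf18 and Izumo1r the study reports lower protein in resting Treg cells only. For Il7r and Tcf7 it reports higher protein in resting Treg cells. The activation state of the libraries compared here is not known. None of the 11 passed the test, at genes or promoters. Il2ra was the only one with an unadjusted p under 0.05 (0.0269, edgeR), with 237, 232 and 233 CPM over its windows in R26TIR1(F74G) mice and 268, 244 and 257 in R26WT mice. The groups did not overlap, and the log2 fold change was -0.13 (95% interval -0.25 to -0.02, adjusted p = 0.687). At its promoter the value was -0.24 (SE 0.12), with 79.5, 72.9 and 78.6 CPM against 102, 72.0 and 103, so the second R26WT mouse lay below all 3 R26TIR1(F74G) mice.

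Of the other 6 genes lower in expression, Tnfrsf4 (OX40) had a gene-level log2 fold change of -0.23 (95% interval -0.54 to 0.08). Foxp3 had -0.15 (-0.46 to 0.15) and Il2rb, the β chain of the IL-2 receptor, -0.10 (-0.29 to 0.09). Tnfrsf18 (GITR) stood at -0.05 (-0.21 to 0.11), Lrrc32 (GARP), which anchors latent TGF-β, at -0.03 (-0.21 to 0.15) and Izumo1r, the folate receptor 4 of Treg cells, at 0.04 (-0.08 to 0.15). The median of the 7 was -0.10 at genes and -0.24 at the 5 promoters with counts, since Foxp3 and Tnfrsf18 had no window there. Without the third R26WT mouse these medians were -0.06 and -0.12. The promoter median was -0.14 without the first R26WT mouse and -0.41 without the second. Promoter values reached -0.54 (SE 0.29) for Il2rb, at a low level of 5.63 to 11.3 CPM against 9.52 to 12.8, and -0.33 (SE 0.16) for Tnfrsf4. The Tnfrsf4 promoter held 93.6 CPM in the third R26WT mouse against 53.0 and 63.2 in the other R26WT mice.

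The 4 genes higher in expression had gene-level values close to 0. Il7r, the IL-7 receptor chain, stood at 0.08 (95% interval -0.05 to 0.22), Tcf7, a factor of naive and stem-like T cells, at 0.07 (-0.06 to 0.19), Id2, an inhibitor of E proteins, at -0.07 (-0.20 to 0.06) and Sox4 at -0.02 (-0.14 to 0.11). For all 11 genes the 95% interval at the gene level lay within 1.5-fold in either direction. At promoters this was so for 3 of 5 and 3 of 4. A forkhead motif, TGTTTAC on either strand, was in the promoters of 0 of the 9 of these genes that the RefSeq table holds and of 3.54% of all genes in the table, a statement on these letters and this window only.

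Of 14 genes of IL-2 receptor signalling, 4 were lower (Il2ra, Stat5b, Cish and Pim1) and 1 higher (Mcl1) at an unadjusted p under 0.05, against 3.47% and 3.62% of all genes, and 0 passed the adjusted threshold (smallest adjusted p 0.681, edgeR). The median was -0.09 on day 7, and -0.05 without the third R26WT mouse. On day 3 it was -0.13, with 5 lower and 0 higher, but on that day 17.4% of all genes had an unadjusted p under 0.05, against 7.09% on day 7. Stat5b, one of the genes of STAT5, held 114, 112 and 114 CPM in R26TIR1(F74G) mice and 125, 122 and 134 in R26WT mice (log2 fold change -0.16, SE 0.06). Cish, a target and inhibitor of STAT5 signalling, held 102, 97.1 and 103 against 106, 112 and 126 (-0.18, SE 0.07). Pim1, a survival kinase, held 314, 306 and 287 against 325, 334 and 332 (-0.13, SE 0.05). In the opposite direction Mcl1, an anti-apoptotic Bcl2 family member, held 132, 123 and 138 against 114, 111 and 114 (0.22, SE 0.06). In each of these genes the groups did not overlap, as in 14.3% of all genes tested. These genes were named for their small p-values, so this adds nothing to them.

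At the promoters of this pathway 3 were lower, Stat5a (-0.35, SE 0.16), Socs2 (-0.24, SE 0.09) and Cish (-0.18, SE 0.08), and 1 higher, Bcl2 (0.15, SE 0.07), of 12 with counts, against 3.92% and 4.13% of all promoters. For the receptor chains Il2rb and Il2rg and the kinases Jak1 and Jak3, gene-level values lay between -0.10 and 0.12. The number of lower genes ranged from 1, without the second R26TIR1(F74G) mouse, to 5, without the first, and was 3 without the third R26WT mouse. With loess offsets it was 6. The STAT motif TTCNNNGAA was in the promoter of 1 of the 12 genes matched (Socs3), against 8.13% of all genes.

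**Figure D4:**
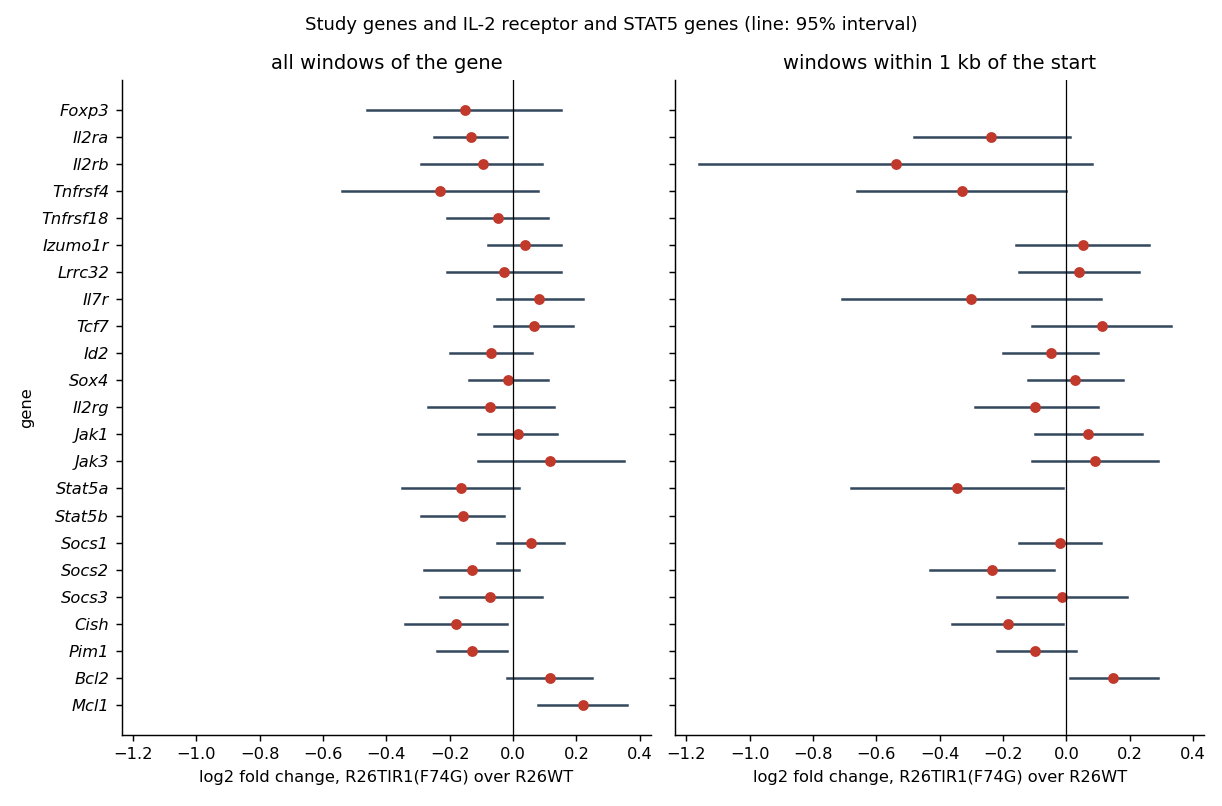
Log2 fold change (points) and 95% interval (lines) of the 11 genes taken from the study's text and of the other IL-2 receptor and STAT5 genes. All windows of the gene are on the left and windows within 1 kb of the start site on the right. Genes with no counted promoter window have no point on the right. At the gene level all values lie between -0.23 and 0.22, and the intervals of Il2ra, Stat5b, Cish, Pim1 and Mcl1 leave out 0.

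Of 22 Treg signature genes, 0 were higher and 2 lower at an unadjusted p under 0.05, against 3.62% and 3.47% of all genes. The 2 were Il2ra and Itgae (CD103, -0.31, SE 0.12), and the median was -0.02. Without the third R26WT mouse 2 were higher and 1 lower, and without the third R26TIR1(F74G) mouse 0 in either direction. Of the others, Nrp1 had 0.10 (SE 0.05) and Nt5e (CD73) 0.12 (SE 0.06), and their groups did not overlap, as in 14.3% of all genes tested. Both were named for their small p-values, so this adds nothing to them. At the 13 signature promoters with counts there were 0 in either direction. Of 10 genes of resting Treg cells, 0 were higher and 1 lower at an unadjusted p under 0.05, against 3.62% and 3.47% of all genes. Of their 10 promoters 1 was higher, that of Bcl2 (0.15, SE 0.07), and 1 lower, against 4.13% and 3.92% of all promoters. Ccr7, the lymph node homing receptor, was the lower one at both levels. Its promoter held 130, 141 and 142 CPM in R26TIR1(F74G) mice and 170, 151 and 163 in R26WT mice (log2 fold change -0.23, SE 0.07, adjusted p = 0.532). Of 16 genes of activated Treg cells 0 had an unadjusted p under 0.05, and of 10 promoters 1 did, against 7.09% of all genes and 8.05% of all promoters. It was that of the cytotoxic protease gene Gzmb (-0.97, SE 0.35), at 2.17 to 4.80 CPM against 5.24 to 8.04. Within that list Lag3 stood at 0.16 (SE 0.09), Pdcd1 (PD-1) at 0.10 (SE 0.06), Prdm1 (Blimp-1) at 0.08 (SE 0.06) and Il10 at -0.25 (SE 0.15).

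Effector cytokine genes were tested at 12 loci, with 0 higher and 1 lower at an unadjusted p under 0.05, against 3.62% and 3.47% of all genes. The lower one was Tnf (-0.34, SE 0.13), at 30.2 to 33.6 CPM against 33.2 to 51.5, where the third R26WT mouse was the highest. Without that mouse Tnf had a value of -0.18 and no gene of the list was lower. Il2 had 53.2, 61.0 and 65.1 CPM against 56.6, 46.9 and 52.1 (log2 fold change 0.21, SE 0.10). Il17a held 4.93 to 10.1 against 2.96 to 7.39 (0.57, SE 0.32) and Il13 had -0.41 (SE 0.25). At the 5 promoters with counts, Ifng (interferon-γ) held 3.87, 4.0 and 3.14 CPM against 8.0, 6.73 and 6.22 (log2 fold change -0.95, SE 0.29, adjusted p = 0.532). Cd40lg (CD40 ligand) held 21.6, 20.3 and 17.3 against 14.5, 14.1 and 15.4 (0.44, SE 0.19). Of 16 T cell receptor signalling genes none had an unadjusted p under 0.05, with Cd3e (-0.16, SE 0.08), Lcp2 (-0.14, SE 0.07) and the kinase gene Lck (-0.17, SE 0.08) the farthest toward it. With total counts 3 of these genes were lower at that threshold, as with loess offsets. Without the second R26WT mouse 4 were lower, and without the third 1 was higher and 0 lower. The promoters of this list had 1 higher, Nfatc1 (0.31, SE 0.09), and 1 lower, Lat (-0.40, SE 0.16), against 4.13% and 3.92% of all promoters.

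Summed over a list, marker genes of B and myeloid cells gave levels that overlapped between the genotypes. The 8 tested B cell markers had 0 at an unadjusted p under 0.05 and a summed level of 177 to 196 CPM in R26TIR1(F74G) mice against 180 to 210 in R26WT mice. The 7 tested myeloid markers summed to 95.1 to 107 CPM against 97.0 to 116, with 2 lower at an unadjusted p under 0.05, against 3.47% of all genes. There were 0 without the first R26TIR1(F74G) mouse, without the second R26WT mouse or without the third. The 2 were Lyz2 (-0.68, SE 0.28), at 2.60 to 3.56 CPM against 3.60 to 6.38, and S100a9 (-0.38, SE 0.17). The CD8 markers Cd8a (-0.08, SE 0.11) and Cd8b1 (0.20, SE 0.10) and 5 markers of natural killer cells had 0, as did 6 markers of CD4+ T cells. Of 5 Treg markers 1 was lower, again Il2ra, against 3.47% of all genes. In bulk cells, fewer cells of a type and less accessible DNA per cell cannot be told apart.

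By distance to the nearest start site, windows within 1 kb leaned toward higher and all others toward lower accessibility in R26TIR1(F74G) mice, but at both ends of the distance range this turned on 1 mouse. Of the 46881 windows within 1 kb, 3.49% were higher and 2.11% lower at an unadjusted p under 0.05, with a median log2 fold change of 0.03. The 110553 windows at 10 to 100 kb had 2.57% higher and 3.37% lower, and the 38353 beyond 100 kb 2.71% and 3.47%. The 42024 windows at 1 to 10 kb had 2.45% and 3.69%. Without the third R26WT mouse, windows within 1 kb had 2.69% higher and 3.91% lower, and those beyond 100 kb 3.42% higher and 2.89% lower, the opposite lean, while those at 1 to 10 kb (2.59% and 3.72%) and at 10 to 100 kb (2.92% and 3.21%) still leaned lower. Among windows with a mean count of 50 to 200 the 3 farther classes did not lean lower even with all mice, at 4.07% higher and 3.66% lower, 4.55% and 4.34%, and 4.56% and 4.30% with rising distance, and windows within 1 kb had 5.55% and 1.16%. Called windows were spread over the classes, with 3, 1, 4 and 3 from the nearest to the farthest.

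**Figure D5:**
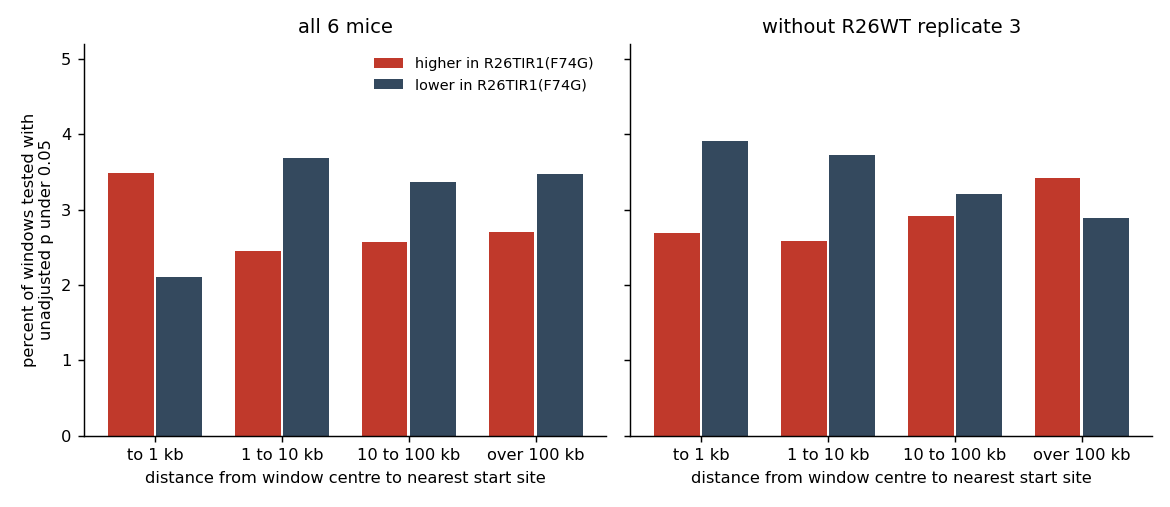
Percent of tested windows that were higher (red) or lower (dark blue) in R26TIR1(F74G) mice at an unadjusted p under 0.05, by distance from the window centre to the nearest start site, with all 6 mice on the left and without the third R26WT mouse on the right. Within 1 kb the higher share is the larger one on the left (3.49% against 2.11%) and the smaller one on the right (2.69% against 3.91%).

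The share of all counts within 1 kb of a start site was 45.6% ± 0.587 (SD, n = 3) in R26TIR1(F74G) mice and 44.6% ± 1.90 (SD, n = 3) in R26WT mice. The difference of 0.927 points had p = 0.6 in a two-sided exact permutation test over mice, in which 0.1 is the smallest p that 3 against 3 allows. Without the third R26WT mouse the difference was -0.168 points. Windows of low counts also leaned lower. Those with a mean count of 10 to 20 had 1.44% higher and 3.36% lower, while those of 100 to 200 had 5.66% and 3.15%.

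Around the R26 locus, where the genotypes differ by construction (chr6:113067428-113077244), accessibility was compared over 26 windows within 100 kb. None passed (smallest adjusted p 0.684), 3 had an unadjusted p under 0.05 and 6 did not overlap between the groups, against 5.95% and 11.8% of all windows tested. Their median log2 fold change was 0.08, with a range of -0.35 to 0.97. The largest, 1242 bp from the start of Thumpd3, held 1.87, 2.62 and 2.02 CPM in R26TIR1(F74G) mice against 1.61, 0.872 and 0.600 in R26WT mice. Whole-gene values of the tested neighbours were -0.07 (SE 0.09) for Thumpd3, 0.16 (SE 0.08) for Setd5, -0.06 (SE 0.11) for Jagn1 and -0.03 (SE 0.10) for Rpusd3. Il17re and Cidec had no tested windows. Of the 1281 regions within 10 Mb, 4.68% had an unadjusted p under 0.05. Podxl lies on the same chromosome, outside that stretch.

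Whether the day 7 difference differed from that of day 3 was tested over all 14 libraries, with day, genotype and their product in the fit. No region, gene or promoter passed (smallest adjusted p 0.644, 0.237 and 0.519, edgeR), and 9829, 1738 and 919 had an unadjusted p under 0.05. DESeq2 called 0 regions, 17 genes and 1 promoter. The promoter was that of Vegfc, a vascular growth factor gene, and Cyb5b was the 1 of the 17 genes with the more positive difference on day 7. These differences compare separate sets of mice and separate controls for each day.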

How the data were processed

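The authors aligned the ATAC-seq reads with Bowtie2 to mm10, called peaks with MACS2, kept those reproducible between replicates and counted reads in them with featureCounts. The deposited table holds these counts per window, not normalized, and every value column matched a sample label (0 unmatched). From it, counts were taken as deposited for the 6 day 7 libraries, each a separately labelled sample, and p-values measure the spread between these libraries only.

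Windows were joined into regions where they overlapped. Each window was linked to the closest start site among the 21440 of 21887 RefSeq protein-coding genes (GRCm38) whose strand was known. This gave 239282 windows within 1 Mb and 16220 genes, 11444 of them with a promoter window. Counts were normalized by TMM and tested by edgeR 4.0.16 (glmQLFit, glmQLFTest, R 4.3.3) at each level among features whose counts averaged 10 or more, with Benjamini-Hochberg adjustment over all of them and a threshold of 0.05. No sample was dropped or imputed. CPM used TMM-normalized library sizes of each level, so levels do not compare between scales. The scripts were tested on simulated data. DESeq2 1.42.0, the authors' tool, other scalings, filters, distances, a replicate block and fits without each mouse were alternatives.

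The authors' methods fit genotype within one condition, which was followed here. Features named in the text are all that passed, and the 3 with the smallest p in each direction where fewer than 5 did. Also named are all genes taken from the study's text, neighbours of R26, and up to 4 members of each other list. Promoters in the IL-2 pathway, Gzmb, Ifng, Cd40lg, Nfatc1, Lat, Bcl2 and further heat shock genes were added after their values were seen. The members and gene lists were chosen with earlier results of these data known. No GRCm38 genome was used here, so window sequences are not given, and all 9 genes looked for in the RefSeq promoter table were found. One marker gene is not reported here.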

Additional observations from a re-analysis of the deposited data

How the results depend on the processing

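Of the 11 windows that differed on day 7 (7 higher, 4 lower), the number became 0 by DESeq2 (6367 before adjustment), 23 with loess offsets (7 higher, 16 lower), 4 without a filter on low counts (0 higher, 4 lower), 34 among windows of mean count 50 or more (13 and 21), 1 with all 14 libraries in the fit and 26 at an adjusted p under 0.1. It was 11 with DESeq2 size factors and 15 with total counts. Leaving out 1 mouse gave 0 to 27 windows, 0 without R26TIR1(F74G) replicate 3, 7 without its replicate 1, 20 without its replicate 2, and 27, 21 and 9 without R26WT replicates 1, 2 and 3. The 0 regions became 14 with DESeq2 (9 higher, 5 lower) and 9 when each region was represented by its highest window (5 and 4), and stayed 0 to 0 with any mouse left out. The 0 genes became 12 with DESeq2 (10 higher, 2 lower) and stayed 0 to 0 without a mouse. The 0 promoters became 5 with DESeq2, all higher, and 0 to 3 with a mouse left out, namely Hspa1a (log2 fold change 0.90), Hspa1b (0.95) and Tdrp (0.77) without R26TIR1(F74G) replicate 2 and Ctnnal1 (0.60) and Eps8l1 (-0.90) without R26WT replicate 1. DESeq2 gave no adjusted p to 100620 regions and 9739 genes, which its filter left out. For the difference between the days, the 0 genes became 17 with DESeq2 (1 more positive, 16 more negative) and the 0 promoters became 1, and counts stayed 0 to 0 for regions. The difference of 0.927 points in the share of counts near start sites was 0.577 within 500 bp, 0.98 within 2 kb and -0.168 to 1.52 with a mouse left out, negative without R26WT replicate 3. The cause of these moves was not tested.

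Same-numbered mice did not deviate together (correlations 0.0708, -0.0358 and 0.00976), so the numbers were not taken as pairs. With the replicate block, 52 windows differed (24 higher, 28 lower), the counts of regions, genes and promoters stayed at 0, and the difference between the days gave 1 gene, Klf12 (-0.78, adjusted p = 0.00899, edgeR).

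Of single windows, regions, genes and promoters, 45 values changed sign under an alternative. At genes these were Nkg7 with loess offsets (0.0615), Sox4 within 100 kb (0.0171) and, within 10 kb, Mocos (0.288), Lrrc32 (0.0885), Il7r (-0.0358), Sox4 (0.0189), Prdm1 (-0.0157), Lcp2 (0.0215) and Klrb1c (-0.0973). At promoters they were Itgam (0.0249) and Nkg7 (0.0308) with loess offsets and Lrrc32 (-0.00235), Pdcd1 (-0.174) and Ebf1 (0.0139) within 500 bp. With a mouse left out, gene values that crossed 0 spanned -0.0602 to 0.458 for Cd22, -0.151 to 0.035 for Cd8a, -0.106 to 0.00292 for Ctla4, -0.0399 to 0.047 for Eomes, -0.110 to 0.0121 for Jagn1, -0.118 to 0.0606 for Lrrc32, -0.241 to 0.207 for Nkg7, -0.0997 to 0.0627 for Rpusd3 and -0.0657 to 0.0302 for Sox4. Promoter values that did so spanned -0.186 to 0.0139 for Ctla4, -0.422 to 0.235 for Itgam, -0.128 to 0.00873 for Jagn1, -0.169 to 0.0679 for Lck, -0.0724 to 0.112 for Lrrc32, -0.265 to 0.187 for Nkg7, -0.129 to 0.0409 for Nr4a1, -0.0798 to 0.00531 for Prdm1, -0.0142 to 0.0773 for Sox4 and -0.383 to 0.0118 for Tnf. The repeats of the list counts, distance classes and mouse distances without single mice were chosen after the data were seen. Fewer intervals lay within 2-fold at regions and windows than at genes and promoters, and intervals cover the spread of 3 mice a group.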

Other observations

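Beyond 1 kb of start sites, the 105768 windows centred inside a protein-coding gene had 2.81% higher and 3.09% lower in R26TIR1(F74G) mice at an unadjusted p under 0.05 (edgeR), and the 85162 outside such genes had 2.28% and 3.92%. Their median log2 fold changes were -0.005 and -0.041. By chromosome, 5.13% to 6.43% of regions had an unadjusted p under 0.05, and the median log2 fold change was lowest on chromosome 11 (-0.061).

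Beyond the genes named above, DESeq2 called Atp10a (log2 fold change 0.18), Ctnnal1 (0.42), Fgfbp1 (0.33), Ggact (0.28), Gm46345 (0.30), Gm8369 (0.34), Tagln2 (0.40) and Ythdc2 (0.33) as higher and Clec2i (-0.29) as lower in R26TIR1(F74G) mice, each at an adjusted p between 0.0481 and 0.0494 that edgeR's test did not give. The promoter of Nr2c1 was also called (0.47, DESeq2 adjusted p = 0.0319). Ythdc2 encodes an RNA helicase, Tagln2 an actin-binding protein of the transgelin family and Nr2c1 an orphan nuclear receptor.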
